A study of Drosophila melanogaster with 8 samples.

Results

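Complex I, the NADH dehydrogenase of the mitochondrial inner membrane, is built partly from nuclear genes, and 40 of the 17473 genes in the count table carry fly names that begin with ND-, the prefix for nuclear complex I subunits and their close copies. All 40 were taken by name alone, and mitochondrially encoded subunits (names beginning with mt:) were kept apart. The study sequenced RNA from Drosophila melanogaster intestinal stem cells, the dividing progenitors of the adult gut lining, in 4 groups of 2 replicates. One group had control mtDNA and another had mutant mtDNA, and each of these was also made with a knockdown of FOXO, the forkhead transcription factor that acts below insulin and stress signalling. By the labels' protocol, tissue was fixed with formaldehyde and an anti-FLAG pull-down was used to collect the RNA held by pAbp, which binds poly(A) tails. Each value thus counts RNA recovered in that pull-down. None of the groups is labelled as input or mock pull-down, so RNA carried over without binding cannot be told apart. The control mtDNA group is the reference for the mutant group, and the control mtDNA group with FOXO knockdown is the reference for the mutant group with FOXO knockdown. The labels used here give neither the mtDNA mutation nor the knockdown reagent, the driver of the tagged protein, nor the age or sex of the flies. They also do not say whether replicates came from separate sets of flies, so p-values measure only the spread between these libraries.

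Complex I takes electrons from NADH and passes them to ubiquinone while pumping protons, and it is the main entry point of the respiratory chain. Its peripheral arm projects into the matrix: the N module oxidises NADH, and the Q module carries electrons on through iron-sulfur clusters to ubiquinone. The membrane arm moves the protons, and its core subunits are encoded by mtDNA, so that a working enzyme needs products of both genomes; in the fly midgut, respiratory function in stem cells is known to bear on their proliferation and differentiation.

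Total counts ran from 21133996 to 39327066 per library, and the libraries fell into 2 classes by their share of nuclear rRNA counts. It was lowest in control replicate 1 (18.2%) and mutant replicate 1 (30.8%), and the other 6 libraries lay between 79.4% and 83.8%. Replicate 1 of the control and mutant groups is therefore called low-rRNA below, and both FOXO knockdown groups consisted of high-rRNA libraries alone. The summed level of 6 progenitor markers was 45.1 to 87.4 CPM per library (counts scaled to a common library size), that of 7 enterocyte markers was 4472.5 to 12826 CPM, and that of 6 visceral muscle markers was 669 to 1570 CPM. The enterocyte sum was 9804 and 12826 CPM in the low-rRNA libraries and 4472.5 to 5456 CPM in the others. Transcripts of gut cells other than the labelled stem cells were thus present in every library, and neither Dl nor esg, which mark progenitors, was at 0. In bulk RNA, fewer cells of a type and less RNA per cell cannot be told apart. The knocked-down gene, foxo, was at 43.2 and 61.9 CPM in control and 49.8 and 66.5 in mutant. It was at 52.0 and 48.0 CPM in control with FOXO knockdown and 52.0 and 53.0 in mutant with FOXO knockdown. In foxo RNA, the libraries labelled as knockdown thus lay below the high-rRNA control and mutant libraries (61.9 and 66.5). They lay above the low-rRNA control library (43.2) and on both sides of the low-rRNA mutant library (49.8).

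Of the 40 members, 36 had enough counts to be tested. ND-24L, a copy of the core gene ND-24, had 0 counts in all 8 libraries. ND-20L, a copy of ND-20, had 4 counts in total and ND-B14.5AL, a copy of ND-B14.5A, had 23. ND-B8, the fourth untested member, is the fly relative of a small N module subunit in mammals, and it had 18 counts in total, with 10 and 5 of them in the low-rRNA libraries. The low copies that did pass were ND-51L1, ND-51L2 and ND-49L, for which reads shared with ND-51 or ND-49 could have been split between copy and parent. ND-MNLL had the same counts as CG45089 in every library and all of its exon bases lie within that gene on the same strand, so its values belong to either gene. In the Ensembl annotation 18 members overlap another gene, 4 of them on the same strand and 16 on the opposite one, and the sources used here do not say whether counting was by strand. The members are spread over the genome, with 9 on chromosome arm 2L, 8 on 2R, 9 on 3L, 4 on 3R, 9 on the X and 1, ND-49, on chromosome 4.

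Levels within the family were compared per kilobase of exon, as the median CPM per kb over the 6 high-rRNA libraries. Without the 3 low copies, the 33 remaining members spanned 18.8-fold, from 4.31 CPM per kb for ND-B17, a membrane arm accessory subunit, to 81.1 for ND-MLRQ, whose mammalian relative was first listed as a complex I subunit and is now placed in complex IV. ND-ACP, the mitochondrial acyl carrier protein, which also serves fatty acid synthesis, followed at 40.4 CPM per kb. ND-SGDH (19.9), ND-23 (19.8) and ND-49 (19.7) came next, and their ranges over these libraries overlapped, so their order is not resolved. Among the core subunits, ND-51 was at 16.9, ND-75 at 9.81, ND-24 at 8.63, ND-30 at 7.86 and ND-20 at 5.85 CPM per kb, so subunits that are present as single copies in each enzyme were not at equal RNA levels. The copies were lowest, at 1.11 for ND-51L1, 0.27 for ND-51L2 and 0.091 for ND-49L. The order changed with library class: Spearman's rho between the levels in the low-rRNA and the high-rRNA libraries was 0.50 over the 36 members, which share libraries and gene models, and ND-PDSW ranked 1 in the low-rRNA and 13 in the high-rRNA libraries.

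**Figure D1:**
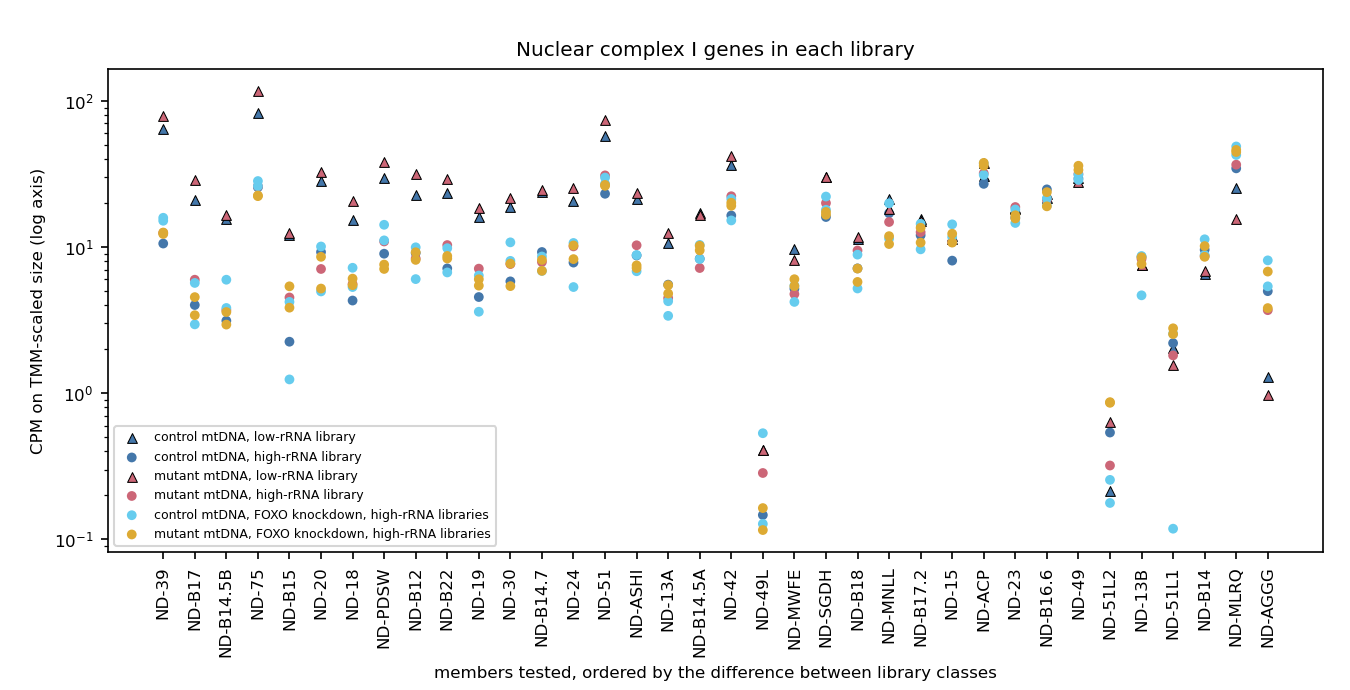
Level of each tested member in each of the 8 libraries, in CPM on a log axis, with members ordered from left to right by the log2 difference between low-rRNA (triangles) and high-rRNA (circles) libraries. On the left, as for ND-39 and ND-75, both triangles lie above all circles; ND-AGGG and ND-MLRQ at the far right have both triangles below.

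Most of these genes differed between the library classes, before any comparison of the study's groups. ND-39, the relative of a mammalian Q module subunit, was at 63.7 CPM in the low-rRNA control library and 78.6 in the low-rRNA mutant library. In the high-rRNA libraries it was at 10.6 in control, 12.5 in mutant, 15.8 and 15.1 in control with FOXO knockdown, and 12.6 and 12.3 in mutant with FOXO knockdown. Both low-rRNA libraries were thus above all others, and in a fit with a term for library class (edgeR quasi-likelihood test) the low-rRNA libraries were higher by 2.62 on the log2 scale (SE 0.14, adjusted p = 9.8e-08). Both knockdown groups were wholly high-rRNA, so the class term rests on the control pair and the mutant pair, each a low-rRNA against a high-rRNA library. Its error also draws on the spread between the knockdown replicates. In that fit 21 of the 36 members were higher and 2 lower in low-rRNA libraries at an adjusted p under 0.05, where 30.3% of all 11561 genes tested were called, 15.3% higher and 15% lower. The next largest differences were those of ND-B17 (2.33, SE 0.28), ND-B14.5B (2.24, SE 0.28), ND-75 (1.93, SE 0.14), ND-B15 (1.92, SE 0.45), ND-20 (1.91, SE 0.31), ND-18 (1.86, SE 0.23) and ND-PDSW (1.77, SE 0.18). The members' median difference was 1.07, against 0.09 over all genes. The low-rRNA libraries lay above all 6 others for 23 members (63.9%, against 25.8% of all genes) and below all 6 for ND-B14, ND-MLRQ and ND-AGGG (8.33%, against 20% of all genes).

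The 2 members that went the other way were both membrane arm genes by the list used here. ND-AGGG was at 1.30 and 0.97 CPM in the low-rRNA libraries and at 3.70 to 8.10 in the others (log2 difference -1.93, SE 0.38, adjusted p = 0.0019). ND-MLRQ was at 25.3 and 15.6 CPM in the low-rRNA libraries and at 34.5 to 48.7 in the others (-0.84, SE 0.17, adjusted p = 0.003). Some members hardly moved: ND-49, a core Q module subunit next to the ubiquinone site, stayed between 27.8 and 36.0 CPM in all 8 libraries, and ND-23 and ND-B16.6 stayed within 14.6 to 18.8 and 19.0 to 24.8 CPM. The split did not follow the arms of the enzyme, since 5 of 7 N module, 4 of 7 Q module and 12 of 19 membrane arm genes were higher in low-rRNA libraries. Between exon length and class difference, r was 0.11 and rho 0.07 over the 36 members, which share libraries. Over the 10358 protein-coding genes tested, r was -0.20 and rho -0.23. Nuclear subunits of complexes II to V showed a like split, with 24 of 35 higher, 5 lower and a median of 1.03, while 4 of the 7 complex I subunits made from mtDNA were lower and none higher, with a median of -2.94. Cell type markers differed too: of 7 enterocyte markers 5 were higher and 1 lower in low-rRNA libraries (median 0.62). Of 6 enteroendocrine markers 1 was higher and 3 lower, and 2 of 6 muscle and 1 of 6 progenitor markers were higher. The cause of the class difference was not tested, and because each class holds different shares of the groups, each comparison below is given both from group means alone and with the class term. The group means fit had a biological coefficient of variation of 0.47 and the class fit one of 0.25.

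**Figure D2:**
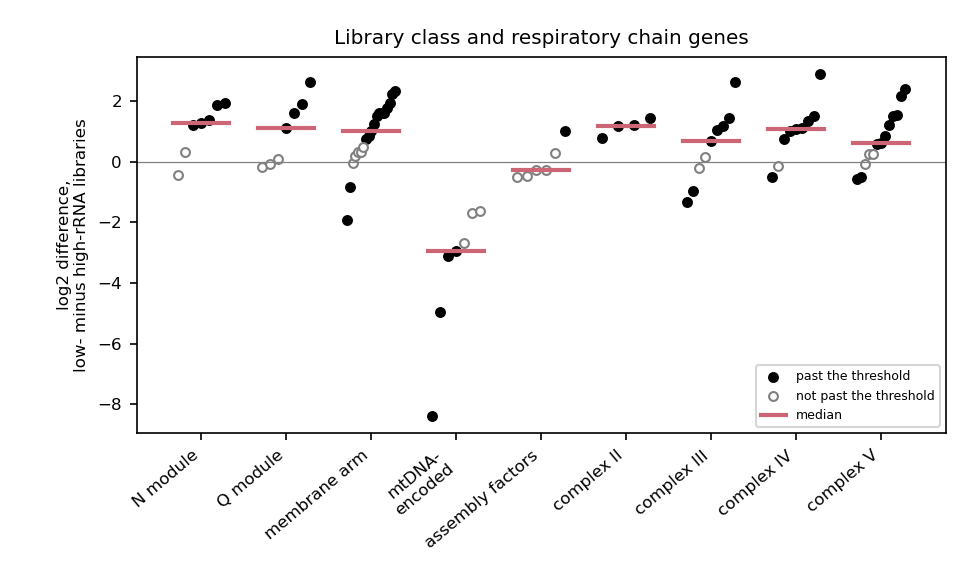
Log2 difference between low-rRNA and high-rRNA libraries for genes of complex I modules, mtDNA-encoded complex I subunits, assembly factors and complexes II to V, from the fit with a class term; filled points are past an adjusted p of 0.05 and bars are list medians. The medians of the nuclear complex I modules lie near 1 and that of the mtDNA-encoded subunits is -2.94.

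The first comparison asked whether mutant mtDNA altered the nuclear genes of complex I while FOXO was intact. None of the 36 members was called, either from group means, where 0% of all genes were called, or with the class term, where 2.08% of all genes (241 of 11561) were. At an unadjusted p under 0.05 there were 0 members from group means, against 233 of all genes (2.02%). With the class term there was 1 member (2.78%), ND-51, against 1262 of all genes (10.9%). The members' median log2 change was 0.15 from group means and 0.17 with the class term, against 0.01 over all genes in both fits, and 24 of 36 members were above 0 with the class term. From group means the median was 0.68 without control replicate 1 and 0.57 without mutant replicate 2, and it turned to -0.52 without mutant replicate 1 and -0.25 without control replicate 2; each of these leaves the classes unequal between the groups. With the class term and total counts as library size it was -0.081, where the median of all genes was -0.25. Within classes, mutant was above control in both the low-rRNA and the high-rRNA pair for 19 members (52.8%), against 29.5% of all genes, and below in both for 6 (16.7%), against 27.4% of all genes. The within-class median was 0.10 in the low-rRNA pair and 0.23 in the high-rRNA pair; each pair is 1 library against 1 and has no replicate check.

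In the N module, ND-75 carries iron-sulfur clusters and is the largest subunit. It was at 83.1 and 25.6 CPM in control and at 117 and 26.0 in mutant, so that the replicates of each group differed far more than the groups did. Its log2 change was 0.39 (SE 0.71) from group means and 0.27 (SE 0.14, adjusted p = 0.54) with the class term. ND-51 binds the flavin and NADH, and it was at 57.7 and 23.1 CPM in control and at 73.7 and 30.9 in mutant. Mutant was higher in both classes by similar amounts, 0.35 in the low-rRNA and 0.42 in the high-rRNA pair on the log2 scale, and the class fit gave 0.38 (SE 0.13, adjusted p = 0.19). ND-24, the other subunit of the NADH-oxidising part, was at 20.6 and 7.82 CPM in control and at 25.4 and 10.1 in mutant (0.33, SE 0.27, adjusted p = 0.86). The accessory ND-18, a relative of a human gene often mutated in Leigh syndrome, was at 15.4 and 4.30 CPM in control and at 20.7 and 5.58 in mutant (0.41, SE 0.23, adjusted p = 0.63). For ND-75 the within-class differences were 0.49 in the low-rRNA pair and only 0.022 in the high-rRNA pair. ND-51 and ND-24 were thus higher in mutant within both classes, and ND-75 was higher in the low-rRNA pair and nearly level in the other. None of the 3 core N module subunits passed the test.

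In the Q module ND-20 was the 1 core subunit of 4 below 0 with the class term, and from group means all 4 were above 0; none passed the test. The values that follow are from the class fit. ND-49 was at 29.6 and 29.4 CPM in control and at 27.8 and 31.6 in mutant, a log2 change of 0.01 with a 95% half-width of 0.29. ND-23, which holds iron-sulfur clusters, was at 18.1 and 15.9 CPM in control and at 18.5 and 18.8 in mutant (0.13, half-width 0.37), and both mutant libraries lay above both control libraries, by 0.031 in the low-rRNA and 0.24 in the high-rRNA pair on the log2 scale. ND-30 was at 18.8 and 5.82 CPM in control and at 21.6 and 7.64 in mutant (0.28, half-width 0.51). ND-20, which binds the last iron-sulfur cluster before ubiquinone, was at 28.3 and 9.24 CPM in control and at 32.5 and 7.08 in mutant (-0.07, half-width 0.66), with opposite directions in the 2 classes. The intervals therefore allow changes of either sign for each of these 4 genes.

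Among the membrane arm genes 13 of 19 were above 0 with the class term, with a median of 0.18. ND-B17 had the highest value among members, at 21.1 and 4.01 CPM in control and 29.0 and 5.97 in mutant (0.51, SE 0.27, adjusted p = 0.59). ND-AGGG had the lowest, at 1.30 and 4.99 CPM in control and 0.97 and 3.70 in mutant (-0.43, SE 0.37, adjusted p = 0.90), and it was lower in both classes. ND-MLRQ was at 25.3 and 34.5 CPM in control and at 15.6 and 36.6 in mutant, so only the low-rRNA pair differed, by -0.69 on the log2 scale. ND-MLRQ passed the threshold when control replicate 2 or mutant replicate 2 was left out of the class fit, and both of these fits also called more of all genes. Of the low copies, ND-51L2 was at 0.21 and 0.54 CPM in control and at 0.64 and 0.32 in mutant, with opposite directions in the 2 classes, and ND-51L1 was at 2.02 and 2.20 CPM in control and 1.56 and 1.81 in mutant (-0.33, SE 0.79).

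Markers of gut cell types, progenitors included, moved in the same comparison. With the class term, all 6 progenitor markers were below 0 in mutant (median -0.95, 2 called lower) and all 6 visceral muscle markers above 0 (median 0.56, 1 called higher). All 6 muscle markers were higher in mutant in the high-rRNA pair. In the low-rRNA pair Mhc and up were higher, while Act57B, Mlc2, sls and wupA were lower. The largest of these, sls, was at 523 and 463 CPM in control and at 379 and 1071 in mutant. Of 7 enterocyte markers 6 were above 0 (median 0.28, 1 called higher). Of 6 enteroendocrine markers 5 were below 0 (median -0.66), and the other, NPF, was called higher (2.05, SE 0.30, adjusted p = 0.0054). From group means no gene was called in this comparison, markers included. Summed muscle markers were at 1259.5 and 669 CPM in control and at 1117 and 1570 CPM in mutant, and summed progenitor markers at 87.4 and 66.9 against 54.0 and 45.1 CPM. Their part in the members' values was not tested.

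**Figure D3:**
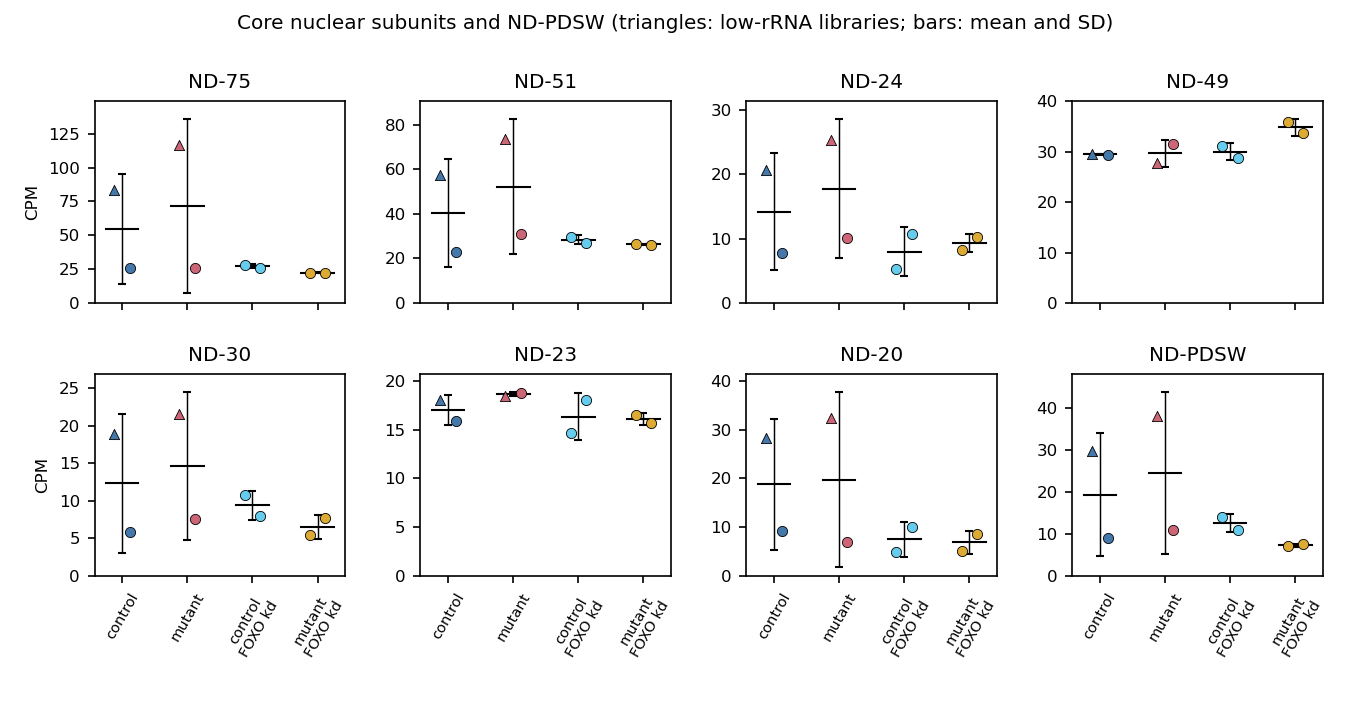
CPM of the 7 core nuclear subunits and of ND-PDSW in each library by group, with triangles for low-rRNA and circles for high-rRNA libraries, horizontal bars for group means and error bars for the SD (n = 2). ND-49 and ND-23 are level across libraries; the other panels are dominated by the triangles, and ND-PDSW is lowest in the 2 mutant libraries with FOXO knockdown.

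Under FOXO knockdown all 4 libraries compared were high-rRNA, although the fits over all 8 libraries take their spread from both classes. None of the 36 members was called from group means, where 0% of all genes were called, or with the class term, where 0.164% of all genes (19) were. At an unadjusted p under 0.05 there were 0 members from group means, against 264 of all genes (2.28%). With the class term there were 2 members (5.56%), against 997 of all genes (8.62%). The members' median was -0.03 in both fits, against 0.03 over all genes, with 16 of 36 above 0. Fits without the low-rRNA libraries called more genes but no member. On the 4 knockdown libraries alone 0 of 35 members were called, against 0.756% of all genes (75 of 9920), and on the 6 high-rRNA libraries 0 of 36, against 1.34% (158 of 11803). At an unadjusted p under 0.05 there were 1 and 2 members in these fits, against 1000 and 1134 of all genes. Both mutant libraries lay below both control libraries for 7 members, ND-75, ND-51, ND-30, ND-39, ND-SGDH, ND-PDSW and ND-B14.5B. That is 19.4% of members, near the 17.5% of all genes. Both lay above for ND-49, ND-13A and ND-51L2, or 8.33% of members against 23.3% of all genes.

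ND-PDSW, the relative of a mammalian membrane arm subunit, came closest to the threshold. It was at 14.2 and 11.1 CPM in control with FOXO knockdown and at 7.08 and 7.58 CPM in mutant with FOXO knockdown, from 240, 174, 173 and 131 counts. The groups did not overlap, and the log2 change was -0.79 in both fits, with an SE of 0.68 and an adjusted p of 1 from group means and an SE of 0.19 and an adjusted p of 0.18 with the class term. ND-39 was at 15.8 and 15.1 CPM in control against 12.6 and 12.3 in mutant (-0.32, SE 0.14, adjusted p = 0.58). ND-30 was at 10.8 and 8.04 CPM against 5.40 and 7.70 (-0.53, SE 0.25, adjusted p = 0.58). ND-75 was at 28.3 and 26.1 CPM against 22.5 and 22.3, and ND-51 at 29.9 and 27.1 CPM against 26.6 and 26.2, so the replicates of these long, well-counted genes were tight and the steps between groups small. On the 6 high-rRNA libraries ND-PDSW was at -0.80 (SE 0.24, adjusted p = 0.12), and on the 4 knockdown libraries at -0.80 (SE 0.22, adjusted p = 0.21). It passed with the class term under DESeq2 (adjusted p = 0.034) and with no filter on low counts (adjusted p = 0.033). Those fits called 156 and 172 of all genes. It also passed when control replicate 2, mutant replicate 2 or control FOXO knockdown replicate 2 was left out. Each of these fits also called more of all genes than the class fit on all libraries.

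The log2 changes of ND-75 and ND-51 were -0.28 (SE 0.14, adjusted p = 0.62) and -0.11 (SE 0.13, adjusted p = 0.84).

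Of the other core genes, ND-49 was at 31.2 and 28.8 CPM in control and 36.0 and 33.6 in mutant (0.22, SE 0.14, adjusted p = 0.66), with no overlap. ND-24 was at 5.32 and 10.7 CPM against 8.27 and 10.2 (0.21, SE 0.28), ND-23 at 14.6 and 18.1 against 16.5 and 15.7 (-0.02, SE 0.18), and ND-20 at 4.97 and 10.1 against 5.20 and 8.57 (-0.14, SE 0.33). For ND-24, ND-23 and ND-20 the groups overlapped. ND-B15, a small membrane arm subunit, was at 1.24 and 4.21 CPM against 3.85 and 5.38 (0.76, SE 0.47, adjusted p = 0.66). It passed only when control FOXO knockdown replicate 2 was left out, a fit that also called more of all genes. ND-51L1 was at 0.12 and 2.55 CPM in control with FOXO knockdown, from 2 and 40 counts, and at 2.54 and 2.78 CPM in mutant. Its log2 change of 1.00 (SE 0.84) rests on the first of these: it was 0.059 without control FOXO knockdown replicate 1 and 4.47 without replicate 2. ND-51L2 had the highest value and ND-49L the lowest, 1.99 (SE 1.24) and -1.21 (SE 1.46), from at most 21 counts per library.

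**Figure D4:**
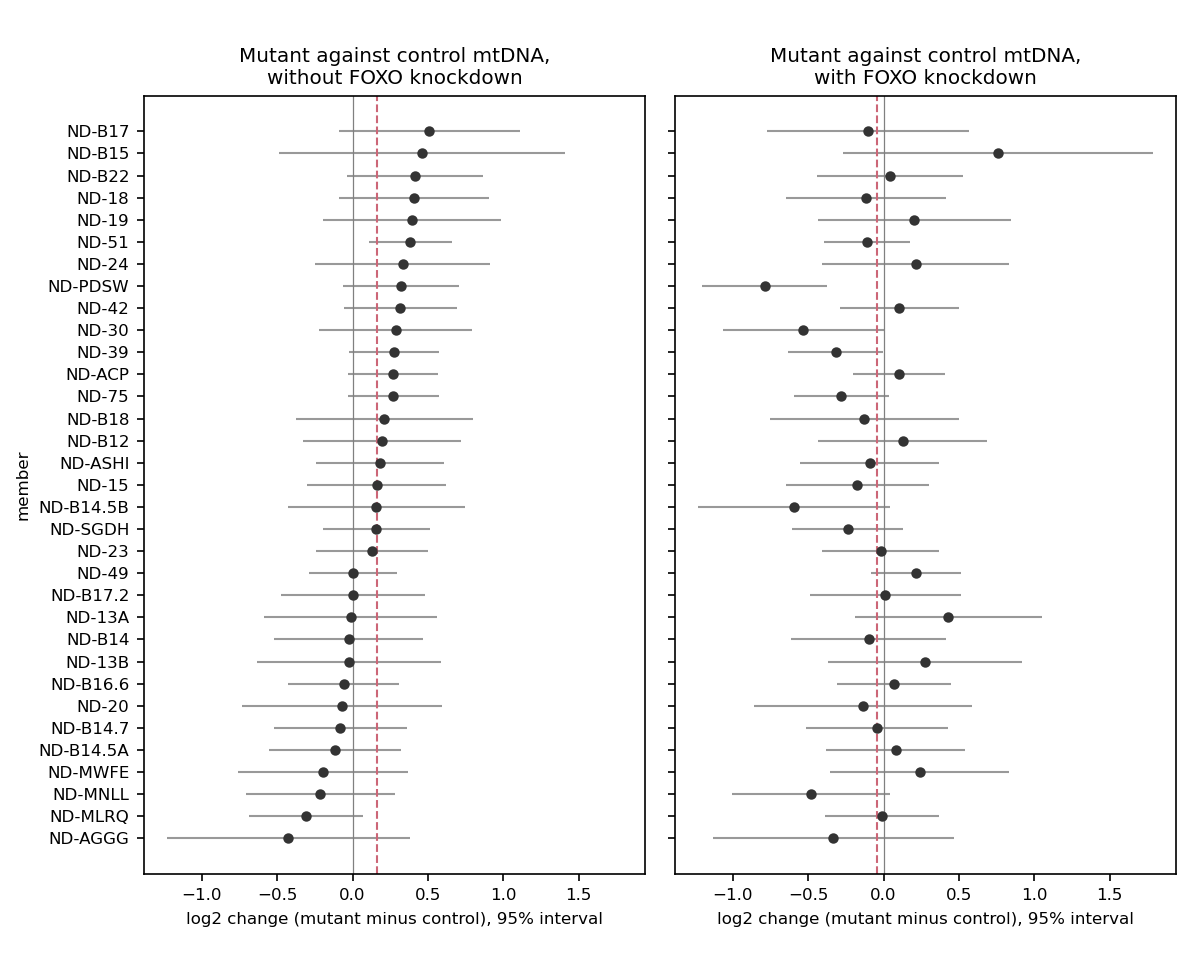
Log2 change between mutant and control mtDNA for the 33 tested members other than the 3 low copies, without (left) and with (right) FOXO knockdown, from the fit with a class term; bars are 95% intervals, dashed lines the medians of the genes shown, and genes are ordered by the left panel. Most points at left lie above 0 with intervals that cross it; at right ND-PDSW, at -0.79, lies farthest below.

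Whether the mutant effect differed with FOXO knockdown was tested as an interaction. No member was called from group means, where 0% of all genes were called, or with the class term, where 0.51% of all genes (59) were. At an unadjusted p under 0.05 there were 0 members from group means, against 215 of all genes (1.86%). With the class term there were 5 members (13.9%), against 1066 of all genes (9.22%). The median interaction was -0.17 from group means and -0.16 with the class term, against 0.04 and 0.03 over all genes, and 13 of 36 members were above 0 with the class term. From group means it was -0.88 without control replicate 1 and -0.46 without mutant replicate 2. It turned to 0.48 without mutant replicate 1, 0.19 without control replicate 2 and 0.14 without control FOXO knockdown replicate 2. Of the 59 genes called with the class term, 44 were below 0. The 5 members with an unadjusted p under 0.05 were all below 0. They were ND-PDSW (-1.11, SE 0.26, adjusted p = 0.095), ND-39 (-0.59, SE 0.20, adjusted p = 0.31), ND-75 (-0.55, SE 0.20, adjusted p = 0.38), ND-51 (-0.49, SE 0.18, adjusted p = 0.39) and ND-30 (-0.82, SE 0.34, adjusted p = 0.48). All 5 are among the 7 whose mutant libraries lay below both controls under knockdown, and the interaction shares those libraries. With the class term, ND-PDSW passed under DESeq2 and with no filter on low counts, at an adjusted p of 0.015 in both. Those fits called 281 and 271 of all genes. ND-PDSW also passed without control FOXO knockdown replicate 2, and ND-75 passed, at -0.76, without mutant replicate 2. Both of these fits also called more of all genes than the class fit on all libraries.

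The remaining comparisons set FOXO knockdown against intact FOXO within each mtDNA type, and in these the class split falls unevenly on the groups. All knockdown libraries were high-rRNA, so with the class term their reference is mainly the 1 high-rRNA library of the group with intact FOXO. With control mtDNA, no member was called from group means (0% of all genes called) or with the class term (0.571% of all genes, 66). At an unadjusted p under 0.05 there were 0 members from group means, against 622 of all genes (5.38%). With the class term there were 5 (13.9%), against 1126 of all genes (9.74%). The members' median was -0.58 from group means and 0.04 with the class term, against -0.11 and -0.03 over all genes. Without control replicate 1, the low-rRNA library, the group means gave 0.08. ND-39, at 63.7 and 10.6 CPM in control and 15.8 and 15.1 with knockdown, lay below 1 control library and above the other, with a log2 change of -1.27 (SE 0.93) from group means and 0.57 (SE 0.16, adjusted p = 0.21) with the class term. ND-PDSW had 0.52 (SE 0.21, adjusted p = 0.45), ND-30 0.64 (SE 0.27, adjusted p = 0.49), ND-ACP 0.36 (SE 0.16, adjusted p = 0.50) and ND-15 0.55 (SE 0.25, adjusted p = 0.51) with the class term. ND-49 had -0.02 (SE 0.15) and ND-23 -0.02 (SE 0.20), the flattest of the core subunits with ND-24 at 0.01 (SE 0.32).

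With mutant mtDNA, no member was called from group means (0% of all genes called) or with the class term (1.9% of all genes, 220). At an unadjusted p under 0.05 there were 3 members (8.33%) from group means, against 643 of all genes (5.56%). With the class term there were 2 (5.56%), ND-PDSW and ND-MLRQ, against 1164 of all genes (10.1%). The members' median was -0.72 from group means and -0.11 with the class term, against -0.04 and 0.01 over all genes, and -0.05 without mutant replicate 1. ND-PDSW was at 38.2 and 10.9 CPM in mutant and at 7.08 and 7.58 with knockdown, below both (-0.60, SE 0.21, adjusted p = 0.26 with the class term). ND-MLRQ was at 15.6 and 36.6 CPM in mutant and at 44.6 and 46.1 with knockdown, above both (0.49, SE 0.19, adjusted p = 0.34). It passed without mutant replicate 2, a fit that also called more of all genes. Of the core subunits, ND-75 was at -0.34 (SE 0.16, adjusted p = 0.52) and ND-51 at -0.21 (SE 0.14, adjusted p = 0.81), and ND-49 was the only one above 0, at 0.19 (SE 0.15, adjusted p = 0.89). The low copies gave the widest values in these tests and in the interaction, each within its error. ND-49L was at 0.41 and 0.15 CPM in control, 0.41 and 0.28 in mutant, 0.53 and 0.13 in control with FOXO knockdown, and 0.16 and 0.12 in mutant with FOXO knockdown. It was highest of the members for FOXO knockdown with control mtDNA (0.85, SE 1.62) and lowest with mutant mtDNA (-0.77, SE 1.55) and in the interaction (-1.62, SE 1.97). ND-51L2 was lowest with control mtDNA (-0.79, SE 1.31) and highest with mutant mtDNA (0.72, SE 1.40) and in the interaction (1.51, SE 1.70), with 0.18 and 0.26 CPM in control with FOXO knockdown and 0.86 and 0.87 in mutant with FOXO knockdown.

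The rest of the enzyme can be set beside these values. All 7 mtDNA-encoded complex I subunits were below 0 for mutant against control mtDNA (class term, median -1.29) and under FOXO knockdown (median -0.51). The subunit mt:ND4 passed the test in both, at -0.74 (SE 0.15, adjusted p = 0.026) and -0.90 (SE 0.15, adjusted p = 0.037) with the class term. From group means neither call held: the changes were -0.76 (SE 1.54) and -0.90 (SE 1.54), each with an adjusted p of 1, and 0 of the 7 were called. Its levels were 3.61 and 114 CPM in control, 2.20 and 67.6 in mutant, 58.5 and 45.8 in control with FOXO knockdown, and 26.2 and 29.8 in mutant with FOXO knockdown. Values below 0 with the class term were not particular to mutant mtDNA. For FOXO knockdown all 7 mtDNA-encoded subunits were below 0 with control mtDNA (median -0.33, 1 called lower). With mutant mtDNA 5 were below 0 (median -0.22, 2 called lower). From group means these medians were above 0, at 0.31 and 0.66, and 0 were called. The subunit mt:ND3 was at 0.061 CPM in mutant replicate 1, where a count of 3 equals 0.045 CPM. Whether nuclear and mtDNA-encoded subunits differ in their change was not tested. Of 6 complex I assembly factors, proteins that help build the enzyme without staying in it, 0 were called in any of the 5 comparisons with the class term. Of 35 nuclear subunits of complexes II to V, 0 were called in any of them, and their medians were 0.07, -0.16, -0.22, 0.12 and -0.07 in the order of the comparisons above, beside the members' 0.17, -0.03, -0.16, 0.04 and -0.11.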

How the data were processed

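The authors deposited raw counts of reads per gene for 8 libraries in 1 table. The submitters' processing notes name FastQC, cutadapt, HISAT2, featureCounts and limma without versions; the genome build and strand setting are not given in the sources used here. Genes were tested with edgeR 4.0.16 (R 4.3.3) by the quasi-likelihood F-test, after filterByExpr and TMM scaling, with p-values adjusted by Benjamini-Hochberg over all 11561 genes tested and a threshold of 0.05. One model had a mean per group, and a further one added a term for library class (nuclear rRNA share under 50% of counts or not). CPM are counts scaled to TMM-adjusted library sizes. A count of 3, the limit that 0 counts allow, equals 0.0239 to 0.191 CPM per library and covers counting error only. Members had a median of 1874.5 counts in low-rRNA and 174.5 in high-rRNA libraries. An SE is the log2 change divided by the root of F. The code was tested on simulated counts. Named genes were the 7 core subunits, the extremes of each comparison with the class term and members called (at most 8 a comparison, smallest p first); others, such as those with an unadjusted p under 0.05, were named after their values were seen. Members and gene lists were chosen with earlier results of these data known. Alternatives covered scaling, filters, DESeq2 1.42.0, the replicate number as a block, the high-rRNA libraries alone and leaving out each library. Sequences and promoters were not analysed here.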

Additional observations from a re-analysis of the deposited data

How the results depend on the processing

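From group means, 0 members were called in any comparison under each scaling, filter and DESeq2 fit tried, and 0 without each library in turn. With the class term, 1 member, ND-PDSW, was called under FOXO knockdown and in the interaction with no filter and with DESeq2. Over all genes these fits called 172 and 156 under FOXO knockdown, and 271 and 281 in the interaction. Without each library in turn, class fits called 0 to 1 members for mutant against control mtDNA, 0 to 3 under FOXO knockdown, 0 to 2 in the interaction and 0 to 1 in each FOXO knockdown comparison; without control FOXO knockdown replicate 2, ND-51L1, ND-B15 and ND-PDSW were the 3. Leaving a group with 1 library assumes that it varies like the others. Medians of group means ranged from -0.52 (without mutant replicate 1) to 0.68 (without control replicate 1) for mutant against control, from -0.88 to 0.48 for the interaction, from -0.99 to 0.081 for FOXO knockdown with control mtDNA and from -1.12 to -0.054 with mutant mtDNA. With the class term these ranges were 0.055 to 0.25, -0.30 to 0.17, -0.079 to 0.22 and -0.15 to -0.013. Under FOXO knockdown the range was -0.16 to 0.15 from group means and -0.16 to 0.14 with the class term.

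For FOXO knockdown with control mtDNA the median of -0.58 became 0.036 with the class term, 0.084 in the 6 high-rRNA libraries and -2.28 with total counts as library size, which moved the median of all genes to -1.60. Class fits gave -0.21 with total counts (all genes -0.27), 0.042 with RLE factors, -0.024 with no filter, 0.045 with DESeq2, 0.016 with rRNA genes removed and 0.023 with the other quasi-likelihood method, chosen after seeing the data. With mutant mtDNA the median of -0.72 became -0.11 with the class term, -0.049 in the 6 high-rRNA libraries and -2.24 with total counts (all genes -1.30). Class fits gave -0.23 with total counts, -0.11 with RLE factors, -0.080 with no filter, -0.11 with DESeq2, -0.097 with rRNA genes removed and -0.12 with the other quasi-likelihood method. The cause of these shifts was not tested. Group comparisons fitted on their own groups gave no interaction, which needs all 4.

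Replicate numbers were used as a block although samples share only a number. Differences of replicate 1 minus replicate 2 correlated over genes at 0.62 between control and mutant and at -0.045 to 0.011 in the other 5 pairs of groups. In control and mutant alone replicate 1 was low-rRNA and replicate 2 high-rRNA, so the 0.62 cannot be told apart from library class. With the class term and replicate block the medians were 0.16 and 0.028 for FOXO knockdown with control and mutant mtDNA, and 0 members were called in any comparison. Members had a median of 174.5 counts in the high-rRNA libraries, and how far depth limits detection was not tested. Under FOXO knockdown all-gene calls numbered 0 from group means, 19 with the class term, 75 on the 4 knockdown libraries and 158 on the 6 high-rRNA libraries.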
